A study of Homo sapiens with 9 samples.

Results

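Cytosolic ribosomal protein genes encode the proteins of the ribosome that translates nuclear messenger RNAs. The genes followed here were all symbols of the deposited tables that start with RPL or RPS and a digit, together with RPLP0, RPLP1, RPLP2 and RPSA, without the RPS6 kinases, the Y-linked copies and binding proteins. The rule found 84 of 18970 gene symbols. They comprised 45 genes of the large subunit, 31 genes of the small subunit and 8 paralogs, whose symbol is that of a subunit gene with L or L1 added. Paralogs and copies are named here by symbol, and how closely they match the subunit gene was not measured. The tables and the rule hold no measure of protein.

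Each ribosomal protein joins ribosomal RNA to build the large or the small subunit, and most are needed in equal numbers. The messenger RNAs are abundant and long-lived in dividing cells, and most start with a terminal oligopyrimidine tract, a C followed by a run of C and T that lets the cell adjust their translation together. Loss of a copy of several of these genes causes Diamond-Blackfan anaemia, and defects of ribosome production are known to harm the cranial neural crest, the embryonic cells that form much of the face.

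The cells were cranial neural crest cells (CNCCs) at passage P4, obtained by differentiation of the human embryonic stem cell line H9, which is long established. In all groups the cells carried a degron tag on SOX9, a transcription factor of the crest, and dTAGV-1 is a small molecule that leads the tagged protein to degradation. The 9 samples formed 3 groups of 3: 0h with a relative SOX9 level of 100% in the labels, and 3h and 24h of 500 nM dTAGV-1 with a level of 0%. The labels give dTAGV-1 at 500 nM and a time of 0h for the first group as well, while the protocol names DMSO as the vehicle. Each group held the same 3 cultures, S9CC13_R6, S9CC47_R5 and S9CC47_R6, named for a clone of the tagged line (S9CC13 or S9CC47) and a differentiation batch (R5 or R6). Clone S9CC13 is thus represented by 1 culture. Newly made RNA was marked for 2 h with 100 uM 4-thiouridine, with a start 1 h (3h group) or 22 h (24h group) after the addition of dTAGV-1, and was read as T>C conversions in sequencing of the 3′ end of messenger RNAs (SLAM-seq).

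The libraries held 16955633 to 28782678 reads, of which 15.9 to 21.3% carried a T>C conversion (T>C reads). The 3h library of culture S9CC13_R6 had the lowest T>C share, and the log2 difference of the 82 measured ribosomal protein genes from the 0h library of the same culture spread more widely there (SD 0.32) than in the other cultures (SD 0.20 and 0.21). All 10 crest markers looked for (TFAP2A and TWIST1 among them) exceeded 1 CPM, the reads per 1000000 reads of the library. The pluripotency genes POU5F1, NANOG, LIN28A, DPPA4 and TDGF1 summed to between 282 and 414 CPM, mostly from LIN28A, and TDGF1 was at 0. The summed crest markers stood at 4051 to 4071 CPM at 0h and at 6133 to 6403 CPM at 24h. SOX9, the gene of the depleted protein, was 1 of the 10 and had the highest level among them. The sum thus moved with time but is not a measure of cell identity apart from SOX9, and its part in the results below was not tested.

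The starts of these genes are shown first because the tract is the feature most of them share beyond their symbols. RefSeq promoters (GRCh38.p14) were given for 67 of the 84 genes. Each line holds 15 bases before and 15 bases from the annotated start, 5′ to 3′, and capitals mark the tract where the start itself is a C followed by at least 4 bases that are each C or T. The first 5 genes are those of the 8 subunit genes with lower T>C reads at 24h that have the tract at the start. They were picked for the tract, so the lines do not show a link between tract and change. The other 4 are paralogs.
RPL13A (19:49487593-49487622, plus strand): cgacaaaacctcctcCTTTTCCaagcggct
RPLP2 (11:809952-809981, plus strand): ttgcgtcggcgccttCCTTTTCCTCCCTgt
RPS3A (4:151099613-151099642, plus strand): cgactcccacttccgCCCTTTTggctctct
RPLP0 (12:120201097-120201126, minus strand): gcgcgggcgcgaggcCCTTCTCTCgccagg
RPL41 (12:56116618-56116647, plus strand): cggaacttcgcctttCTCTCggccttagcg
RPL22L1 (3:170870181-170870210, minus strand): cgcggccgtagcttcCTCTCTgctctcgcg
RPS27L (15:63157463-63157492, minus strand): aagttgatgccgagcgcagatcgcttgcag
RPL7L1 (6:42879601-42879630, plus strand): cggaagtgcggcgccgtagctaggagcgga
RPL26L1 (5:172958714-172958743, plus strand): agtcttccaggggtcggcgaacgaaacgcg

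A tract began exactly at the annotated start in 42 of 61 subunit genes (68.9%) and in 1 of 6 paralogs, RPL22L1. Among the 14542 other protein-coding genes of the tables with a promoter, 644 (4.43%) had it there, and 4.07% of all 35116 promoters did. When the tract could begin up to 10 bases to either side of the start, 55 of the 61 subunit genes had it, against 2 of the 6 paralogs and 33.8% of the other protein-coding genes. The search was on the sense strand, since the tract is a property of the RNA. RPS27A and RPS15, whose T>C reads were also lower at 24h, had promoters without a tract at the annotated start. RPL5, lower as well, was not among the genes with a promoter. Lower T>C reads at 24h were called in 5 of the 42 subunit genes with a tract and in 2 of the 19 without (2.59% of all genes were lower).

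Ribosomal protein messenger RNAs took up a large part of every library. At 0h the 84 genes held 16.1% of all reads in S9CC13_R6, 16.5% in S9CC47_R5 and 17.2% in S9CC47_R6. The 3h libraries of these cultures held 16.2%, 17.0% and 15.9%. The 24h libraries held 15.0%, 15.9% and 15.1%. The 24h value was below the 0h value in each culture, with differences of −1.04, −0.65 and −2.05 percentage points (mean −1.25, SD 0.72, n = 3), and the 3 values at 24h lay below the 3 at 0h without overlap. The 3h values were on both sides of those at 0h (mean difference −0.23, SD 0.92). The 95% Wilson intervals of these shares were at most 0.018 points to either side, which covers counting error only.

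Of the T>C reads, the genes held a smaller part. They made up 6.96%, 7.54% and 7.48% of T>C reads at 0h in cultures S9CC13_R6, S9CC47_R5 and S9CC47_R6. At 3h the parts were 7.14%, 7.55% and 7.03%, and the 24h libraries gave 6.75%, 6.81% and 6.27%. The 24h value was again below the 0h value in each culture, with differences of −0.21, −0.73 and −1.21 points (mean −0.72, SD 0.50), and the groups did not overlap. In bulk libraries, fewer cells of a type and less RNA per cell cannot be told apart.

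**Figure D1:**
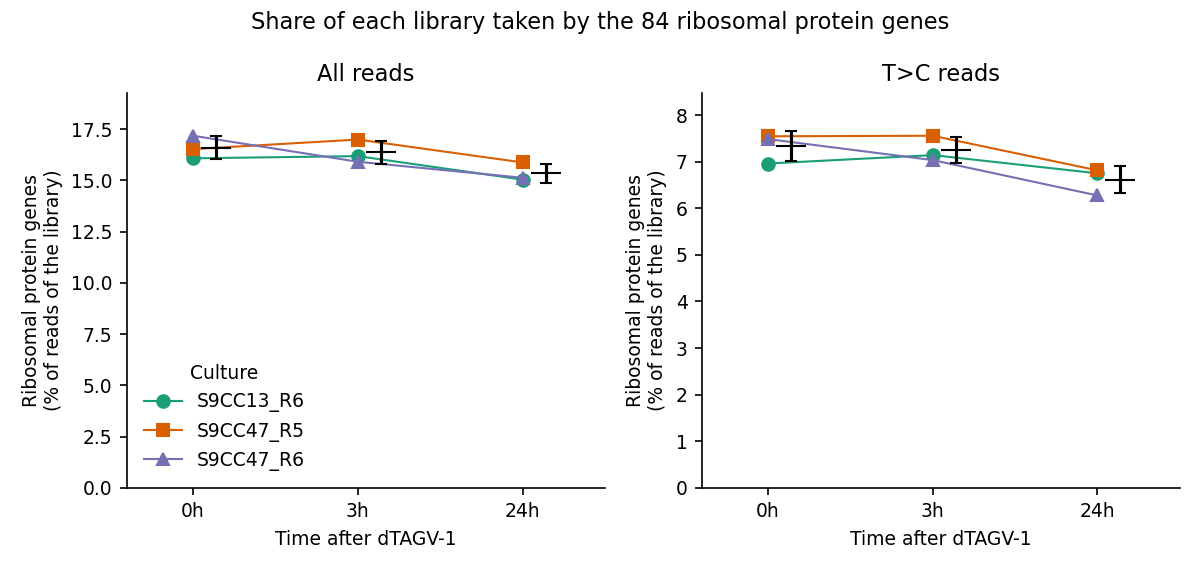
Percent of all reads (left) and of T>C reads (right) that fell on the 84 ribosomal protein genes, in each of the 9 libraries (points joined by culture; black bars, mean ± SD, n = 3 per time). All cultures were lower at 24h than at 0h in both panels, with means of 16.6% and 15.4% for all reads and of 7.33% and 6.61% for T>C reads.

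Of the 84 genes, 82 reached 1 CPM in at least 3 samples of both tables. RPL3L and RPL10L, copies known for their use in striated muscle and testis, had 0 reads in all 9 libraries (RPL3 and RPL10 had 1070 to 1377 and 2067 to 2358 CPM at 0h), which allows a level of up to 0.177 CPM in the shallowest library (3 reads). The 3′ end method gives about 1 fragment per transcript molecule, so levels of genes were compared without division by length. The 82 genes had a median level of 1520 CPM at 0h, against 24.6 CPM for all genes that passed the filter in both tables, and 51 of them were among the 100 genes with the highest level. The levels ran from 19.8 CPM for RPL39L to 13820 CPM for RPL41, and 54 of the 76 subunit genes exceeded 1000 CPM.

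RPL41, on chromosome 12 (56116590-56117967, hg38, GENCODE release 44), encodes the smallest protein of the large subunit. Its level was 14100, 13640 and 13740 CPM at 0h, 13440, 14480 and 13360 CPM at 3h, and 12350, 11890 and 11410 CPM at 24h (cultures S9CC13_R6, S9CC47_R5 and S9CC47_R6, the order used throughout). It was the gene with rank 2 in level at 0h, and the 24h libraries lay below all others. The next 4 levels belonged to RPL27A (5170 to 6458 CPM at 0h), RPS23 (5129 to 5658 CPM), RPS27A (4952 to 5111 CPM) and RPS6 (4574 to 4992 CPM). RPS6 is the small subunit protein phosphorylated downstream of mTOR, and RPS27A is made as a fusion with ubiquitin. The 0h ranges of RPL27A and RPS23 overlapped, whereas RPS6 and RPS27A overlapped only with each other at their edges, and none of these 4 came near RPL41.

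The 6 measured paralogs were expressed below the subunit genes they are named after. RPL7L1 stood at 225 to 236 CPM at 0h and RPS27L, a p53-inducible copy, at 196 to 239 CPM. RPL36AL and RPL22L1 had 129 to 174 CPM and 99.9 to 121 CPM, and RPL26L1 and RPL39L had 25.1 to 38.3 CPM and 17.7 to 23.4 CPM. Their partners at 0h were RPL26 with 3028 to 3213 CPM, RPL36A with 562 to 792 CPM, RPL22 with 724 to 831 CPM and RPL39 with 1624 to 1780 CPM. RPS27 (263 to 383 CPM) and RPL7 (326 to 451 CPM) were closest to their copies, although each pair kept apart at 0h. Together the 8 paralogs held 0.0716 to 0.0818% of the reads of a library.

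Processed pseudogenes of these genes are numerous in the human genome, and reads shared with them can be lost or split. GENCODE names 1569 pseudogenes after the 84 genes, up to 133 for RPL21, and none for 7 of them. The level at 0h did not follow that number (Spearman's rho 0.03 across 82 genes, a description). The levels and shares of near-identical copies therefore carry this uncertainty, and the effect of the counting on them was not tested.

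The share of a gene's reads that carry a T>C conversion reflects how much of its RNA was made within the 2 h of labelling, along with how many T bases the reads cover. It was low for ribosomal protein genes. At 0h the median over the 82 genes was 6.14%, against 27.4% over the 11561 genes that passed the filter in both tables. Of the 82 genes, 66 (80.5%) lay below 10.7%, the 10th percentile of all genes, and 5 lay above the median of all genes. The 45 large subunit genes had a median of 6.03%, the 31 small subunit genes 5.65% and the 6 measured paralogs 19.3%. RPL7L1 had shares of 26.3 to 28.4% at 0h, RPL26L1 23.3 to 27.6%, RPL36AL 18.1 to 22.4% and RPL22L1 17.6 to 19.6%. The partners RPL7, RPL26, RPL36A and RPL22 had 7.77 to 8.76%, 5.04 to 5.41%, 5.50 to 6.91% and 6.72 to 7.38%, so the copy was above its partner without overlap in these 4 pairs. RPS27L, at 7.89 to 9.63%, was the paralog of lowest share and still lay above RPS27 (3.60 to 4.11%).

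The lowest shares at 0h were those of RPL35 (2.82%, 3.20% and 3.00%), RPL3 (3.03%, 3.05% and 3.43%) and RPL36 (3.10%, 3.45% and 3.01%). These are large subunit genes, and their ranges overlapped. The share differed little between libraries for most genes: the coefficient of variation over the 9 libraries had a median of 7.76%, against 13.6% over all genes. The sets also differ in level (medians of 1520 and 24.6 CPM at 0h), and with it in counting error. The variation was not compared at equal level. The widest 95% Wilson interval of a share was 4.02 points to either side, for RPL26L1, and the median over the 82 genes was 0.301 points.

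A small group of subunit genes stood far above the rest, as the plot of ranked shares shows. RPS29, a zinc-finger protein of the small subunit, had shares of 57.2%, 66.2% and 59.1% at 0h. RPL38, known from mouse mutants with skeletal defects, had 60.1%, 51.9% and 55.4%. Below them came, among others, RPS13, RPLP2, RPL31, RPL30, RPS21 and RPL28, and the mean share dropped from 16.8% for RPL28 to 11.4% for RPLP1. The border of 16% between them was set after the values were seen, so the group is a description without a test.

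**Figure D2:**
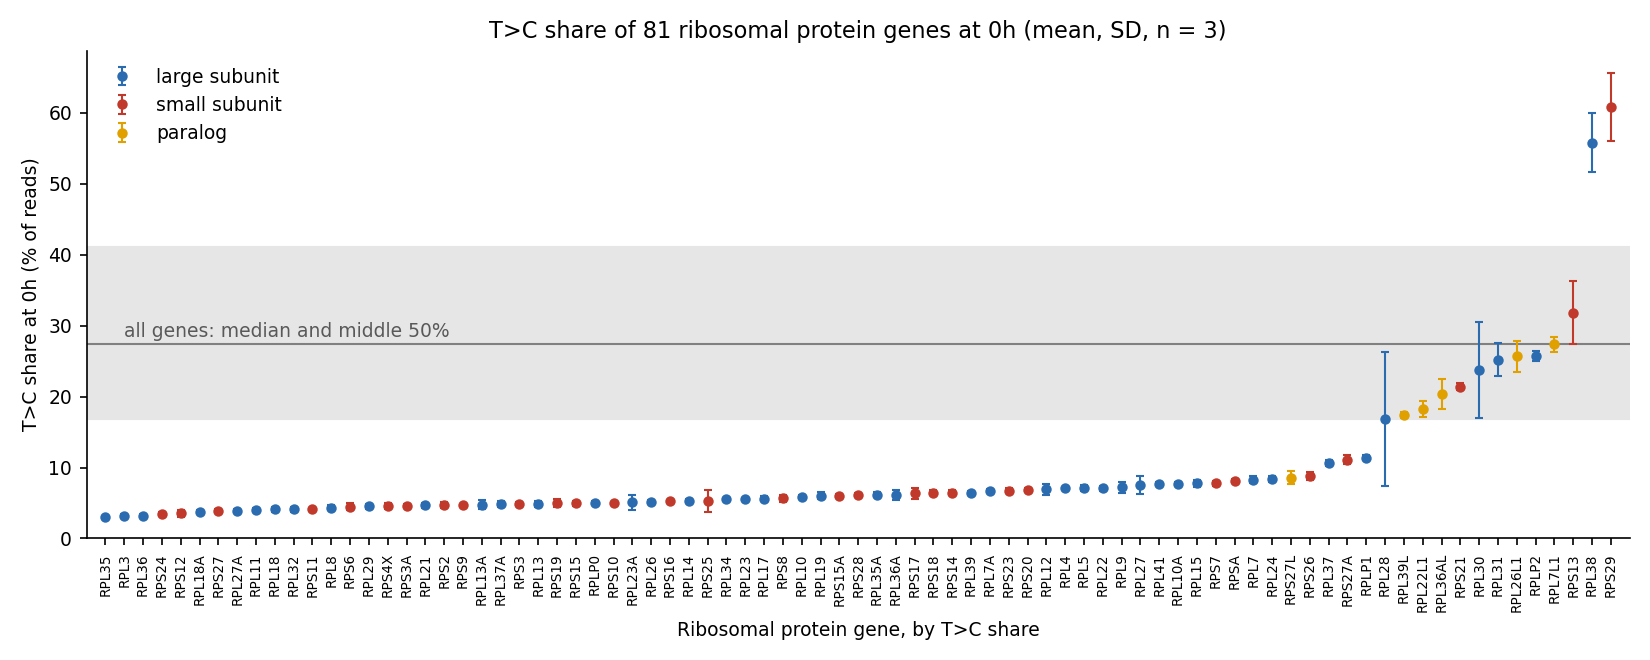
T>C share at 0h (percent of a gene's reads with a conversion; points, mean; bars, SD, n = 3) of 81 of the 82 ribosomal protein genes in rising order, coloured by subunit or paralog, with the median (line) and the middle 50% (band) of 11561 genes. Most points lie near 6.14%, below the band, and RPS29 and RPL38 lie above it.

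The 9 genes above this border held 6.79 to 8.15% of the total reads on ribosomal protein genes but 33.3 to 40.6% of the T>C reads. Without them the genes made up 4.75% ± 0.23, 4.62% ± 0.35 and 4.10% ± 0.25 (SD, n = 3) of T>C reads at 0h, 3h and 24h. The 24h value was then still below that at 0h in each of the 3 cultures.

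The 9 genes behaved differently across libraries. The share of RPLP2, a stalk protein that contacts elongation factors, lay between 23.7% and 26.6% in all 9 libraries. RPL28 was the most variable of the 82, with shares of 5.98%, 6.77% and 5.05% at 0h, 3h and 24h in culture S9CC47_R6.

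In the other cultures the share of RPL28 was 23.4%, 20.0% and 32.2% (S9CC13_R6) and 21.1%, 28.0% and 21.9% (S9CC47_R5) at the same times. Culture S9CC47_R6 thus lay apart from the others at every time, without overlap. It shares its clone with S9CC47_R5 and its batch with S9CC13_R6, so neither label alone separates it. The total level of RPL28 was also lowest in that culture at 3h and 24h (440 and 376 CPM, against 659 to 890 CPM in the other 4 libraries), while at 0h S9CC47_R5 was lower (518 against 535 CPM).

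RPL30 ranged from 11.5 to 36.4%, both in culture S9CC13_R6 (3h and 24h), and its total level was highest at 24h in each culture. The conversion count does not tell a labelled T from any other base read as C where the reference has T, such as a base difference between H9 and the reference. Which of these made the high shares was not tested.

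**Figure D3:**
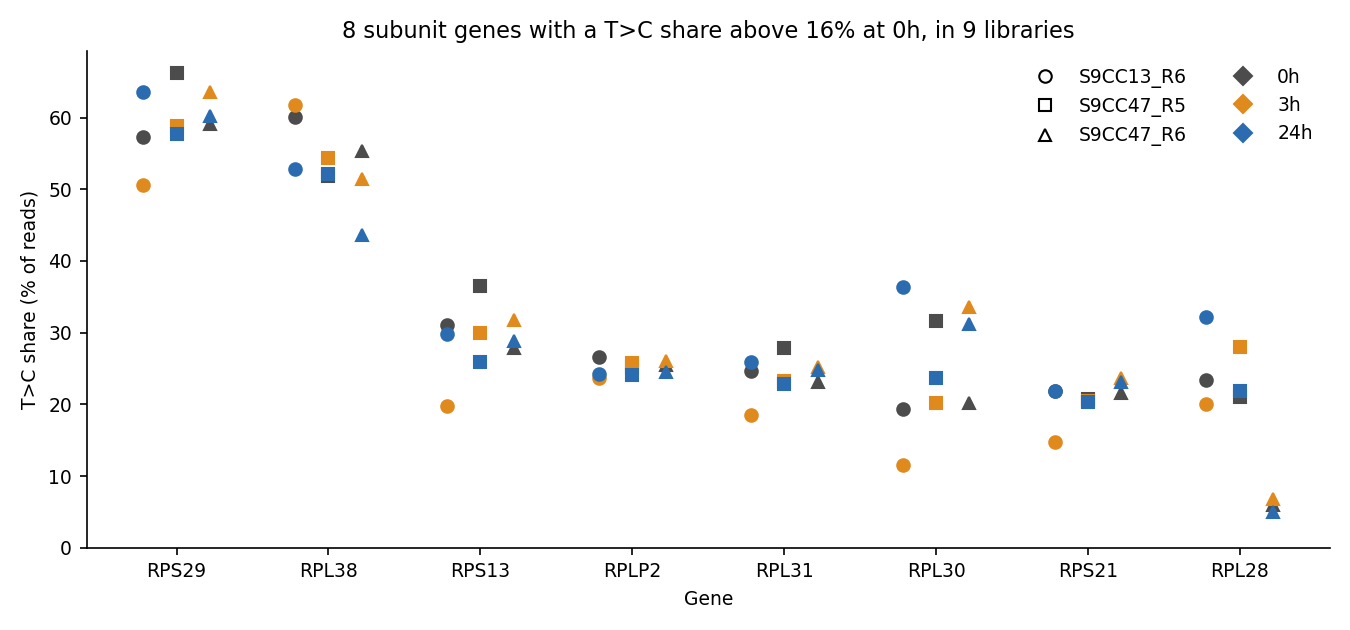
T>C share (percent of reads) of 8 of the 9 subunit genes above 16% at 0h, in each of the 9 libraries (symbol, culture; colour, time). RPLP2 stays within 23.7 to 26.6%, while RPL28 lies near 5 to 7% in culture S9CC47_R6 and at 20.0 to 32.2% in the others.

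The ends of these transcripts held less T than those of other genes. The last 150 bases of the canonical GENCODE transcript held a median of 28.0% T over the 82 genes and 32.7% over all genes. Over the 82 genes, Pearson's r between T content and share at 0h was 0.05 and Spearman's rho 0.32. Among the 67 subunit genes with a share under 16%, a border set after the shares were seen, they were 0.37 and 0.40. Among the 51 of these with a transcript of at most 1500 bases, a limit that was not planned either, they were 0.47 and 0.52. Over all genes r was 0.33. RPL38, with 24.7% T, did not have a T-rich end. These genes share libraries and the annotated end may not be the counted one, so the values describe the set only.

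At 3h none of the 82 genes passed an adjusted p of 0.1 in T>C reads (DESeq2 with time, batch and a surrogate variable, 12037 genes, of which 1.79% passed). At an unadjusted p under 0.05 were 4 of the 82, while 7.33% of all genes were, and 1 passed in edgeR (1.22%, against 2.39% of all genes). The median log2 fold change of the 82 genes was −0.04, against −0.01 over all genes, and 57 of 82 (69.5%) were below 0, against 52.3% of all genes. The cultures differed in sign: within S9CC13_R6, S9CC47_R5 and S9CC47_R6 the median difference of normalised T>C reads was 0.10, 0.08 and −0.24 (log2), and without S9CC47_R6 the fitted median was 0.11. In total reads none passed either (1.89% of 11710 genes did), and the median was −0.03. There 5 of the 82 were at an unadjusted p under 0.05 (8.22% of all genes were), and 0 passed in edgeR (1.78% of all genes did). Normalised T>C reads, the counts divided by the DESeq2 size factor, were lower at 3h than at 0h in all 3 cultures for 9 of the 82 genes (11.0%, against 13% of all genes). Without S9CC47_R5, 2 genes passed in T>C reads and 4 in total reads, all of them lower (2.44% and 4.88% of the 82, against 0.748% and 1.32% of all genes). Without S9CC47_R6, 1 gene passed in T>C reads (0.457% of all genes did), which was higher. In total reads 14 then passed, 11 of them higher, which is 17.1% of the 82 against 1.70% of all genes. Without S9CC13_R6, 1 gene passed in T>C reads, which was higher (0.457% of all genes passed).

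At 24h, 8 of the 82 genes had fewer T>C reads than at 0h and none had more (DESeq2, adjusted p under 0.1; 4.98% of all genes passed in either direction and 2.59% were lower). They were RPS27A, RPS3A and RPS15 of the small subunit, RPL13A, RPL41 and RPL5 of the large subunit, and RPLP0 and RPLP2 of the stalk. The median log2 fold change of the 82 genes was −0.13, against 0.00 over all genes, and 65 of 82 (79.3%) were below 0, against 49.8% of all genes. In 30 of the 82 genes the 3 libraries at 24h lay below the 3 at 0h without overlap, while 11.5% of all genes did so. The count changed when a culture was left out: without S9CC13_R6 or without S9CC47_R6 it was 0, and without S9CC47_R5 it was 5, while the calls over all genes dropped from 599 to 67, 93 and 259. Fits without a culture kept the surrogate variable on fewer libraries, so the part of a culture and that of the smaller fit were not separated. In these fits the median log2 fold change of the 82 was −0.10, −0.10 and −0.16, and the fold change of RPL13A was −0.34, −0.27 and −0.31. edgeR called 16 of the genes (14 lower and 2 higher; 19.5%, against 8.04% of all genes), and the 8 above were among them.

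RPS27A (chromosome 2, 55231903-55235853) had the largest difference. Its normalised T>C reads were 11826, 11395 and 13085 at 0h, 9093, 12305 and 9499 at 3h, and 7387, 9454 and 7962 at 24h. All libraries at 24h lay below all at 0h, while the 3h libraries overlapped with those at 0h. The log2 fold change at 24h was −0.56 (SE 0.11, DESeq2 adjusted p = 1.3e-05). Without S9CC13_R6 it was −0.29 and did not pass.

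RPL13A, a large subunit protein also known for a role in translational silencing, had 2908, 3468 and 3172 normalised T>C reads at 0h and 2492, 2809 and 2273 at 24h. RPS3A, of the small subunit, had 3586, 3474 and 3731 at 0h and 2640, 3197 and 2469 at 24h. For both, the 24h libraries were the lowest of each culture and did not overlap with those at 0h. Their log2 fold changes were both −0.31 (SE 0.08 and 0.09, DESeq2 adjusted p = 0.0061 and 0.023).

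RPLP2 had 9593, 8471 and 9208 normalised T>C reads at 0h and 7146, 7446 and 6532 at 24h (log2 fold change −0.30, SE 0.08, adjusted p = 0.0045). RPLP0, the stalk protein to which it binds as a dimer with RPLP1, had 3919, 4214 and 4493 at 0h and 3194, 3681 and 3404 at 24h (−0.29, SE 0.09, adjusted p = 0.026). The groups did not overlap in either gene. RPL41 and RPS15 were lower by similar amounts (−0.26 and −0.30, adjusted p = 0.010 and 0.045), again without overlap.

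RPL5 and RPL11 form a complex with 5S ribosomal RNA that can bind and inhibit MDM2 when ribosome assembly fails. RPL5 had 3482, 3695 and 3534 normalised T>C reads at 0h and 2739, 3264 and 2944 at 24h, with no overlap (log2 fold change −0.26, SE 0.08, adjusted p = 0.034). RPL11 had 589, 684 and 636 at 0h and 554, 693 and 616 at 24h, groups that overlapped (−0.06, SE 0.11, adjusted p = 0.90). The difference between the genes was not tested. RPS19, the gene most often mutated in Diamond-Blackfan anaemia, overlapped as well, with 1251, 1304 and 1905 at 0h and 1225, 1478 and 1185 at 24h (−0.15, SE 0.23, adjusted p = 0.87). Of the 16 genes of that disease on the list, RPL5 passed in T>C reads, and 13 were below 0. Among all 82 genes 8 passed, all lower, and 65 (79.3%) were below 0. Over all genes 2.59% were called lower and 49.8% were below 0. The 16 were not tested against the others.

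**Figure D4:**
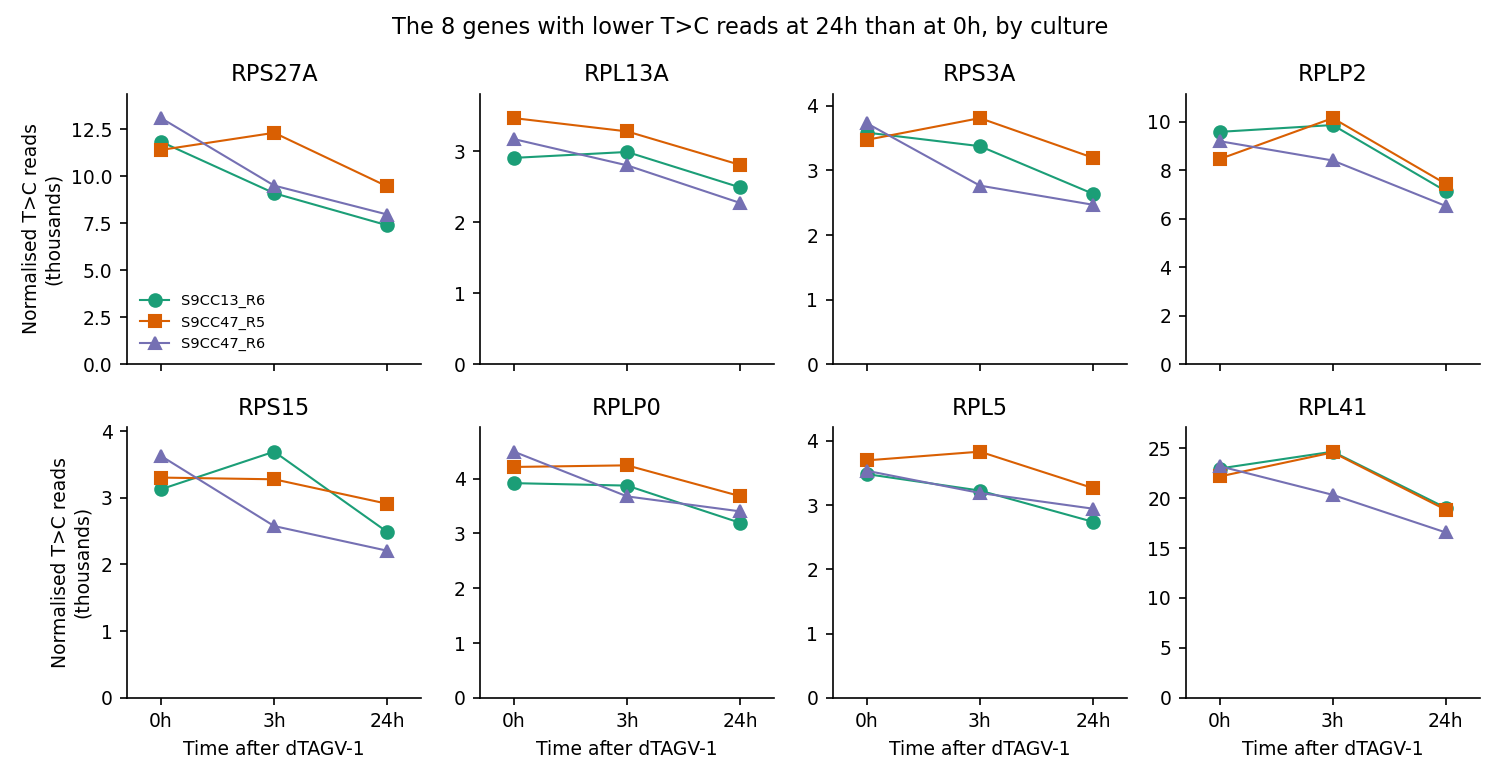
Normalised T>C reads (in units of 1000 reads, counts divided by DESeq2 size factors) of the 8 genes with fewer T>C reads at 24h than at 0h, in each culture (lines) at 0h, 3h and 24h. In each panel the 3 points at 24h lie below the 3 at 0h, and in culture S9CC47_R6 the value at 3h also lies below that at 0h.

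In total reads, 20 of the 82 genes differed between 24h and 0h (DESeq2, adjusted p under 0.1; 15.0% of all genes passed), of which 18 were lower (7.85% of all genes were) and 2 were higher (7.11% were). With culture as a block, the paired fit, 11 genes passed (13.4%, against 14.7% of all genes), as in T>C reads (11, where 6.00% of all genes passed). The edgeR fit called 16 in both measures, which is 19.5% of the 82, against 17.2% of all genes in total reads and 8.04% in T>C reads. On simulated total reads this DESeq2 fit made more false calls than its threshold of 0.1 allows, so calls close to it are less secure than the adjusted p states. The 18 comprised 10 genes of the large and 8 of the small subunit, and no paralog. The median log2 fold change was −0.10, against 0.00 over all genes, and 22 genes were lower without overlap between the groups, a pattern found in 15.1% of all genes. Of the 8 genes lower in T>C reads, 7 were also among the 20 for total reads, and RPL5 was not. T>C reads are part of the total reads, so the measures are not independent.

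The largest falls of total reads were those of RPS27A (log2 fold change −0.39, SE 0.10, adjusted p = 0.0013), RPS24 (−0.32, SE 0.10, adjusted p = 0.018) and RPL26 (−0.31, SE 0.11, adjusted p = 0.046). RPS24 had 91635, 86181 and 97263 normalised total reads at 0h and 64236, 83833 and 73852 at 24h. RPL26 had 69265, 65910 and 70046 at 0h and 46731, 65854 and 59608 at 24h. The groups did not overlap, but in both genes culture S9CC47_R5 barely moved. Without S9CC13_R6 the fitted fold changes of RPS24 and RPL26 were positive (0.06 and 0.10), and that of RPS27A was −0.04. The reads of RPS24 and RPL26 were still lower at 24h in both remaining cultures, so the positive fitted values do not describe these cultures. That fit kept batch and the surrogate variable on fewer libraries. With culture as a block RPL26 did not pass (−0.27, adjusted p = 0.12).

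Among the genes of highest level, RPL41 was lower in total reads at 24h (log2 fold change −0.23, SE 0.07, adjusted p = 0.016), without overlap between the groups. RPS23 had 115540, 123160 and 114360 normalised total reads at 0h and 93430, 115080 and 112610 at 24h, where the groups overlapped, and passed narrowly (−0.23, SE 0.09, adjusted p = 0.085), but not with culture as a block (−0.15, adjusted p = 0.44). RPL27A and RPS6 did not pass: RPL27A, at 111460, 112750 and 144000 against 99507, 124310 and 99105, had a value of −0.12 (SE 0.11, adjusted p = 0.52). RPS6, at 104370, 108670 and 101990 against 103770, 85824 and 94314, had a value of −0.16 (SE 0.08, adjusted p = 0.22).

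RPL30 and RPL28 were the genes that the main fit called higher in total reads at 24h. RPL30 had 19593, 30230 and 27122 normalised total reads at 0h and 40060, 32992 and 46671 at 24h, without overlap (log2 fold change 0.47, SE 0.11, adjusted p = 0.0010). Without S9CC13_R6 the fit gave RPL30 a value of −0.03, although its reads were higher at 24h in both remaining cultures. The value was 0.28 without the 3h library of S9CC13_R6, where it did not pass, and 0.64 with culture as a block. RPL28 had 15232, 11265 and 11937 at 0h and 15949, 14232 and 7957 at 24h, groups that overlapped, and its fitted log2 fold change of 0.26 (SE 0.11, adjusted p = 0.098) became −0.08 with culture as a block and −0.02 without the surrogate variable. Their T>C reads had the highest fitted values of the 82 genes, 0.55 (SE 0.41) and 1.07 (SE 0.84), and did not pass (adjusted p = 0.64 and 0.67).

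The calls in total reads also changed with the cultures left in the fit, where the surrogate variable was again kept on fewer libraries. Without S9CC13_R6, 11 genes passed (13.4%, against 1.39% of all genes), of which 10 were higher, and the median log2 fold change was 0.03. Without S9CC47_R5, 12 passed (14.6%, against 6.73%), and without S9CC47_R6, 2 passed, both higher (2.44%, against 2.80%). Without the 3h library of S9CC13_R6 alone, a setting chosen after the data were seen, 1 passed (1.22%, against 4.90%). Within cultures, the median difference of the 82 genes from 0h to 24h in normalised total reads was −0.07, −0.05 and −0.28 (log2) in S9CC13_R6, S9CC47_R5 and S9CC47_R6, and in T>C reads −0.10, −0.07 and −0.37. Both cultures of the fit without S9CC13_R6 thus had a median below 0 in total reads, unlike the fitted median of 0.03.

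**Figure D5:**
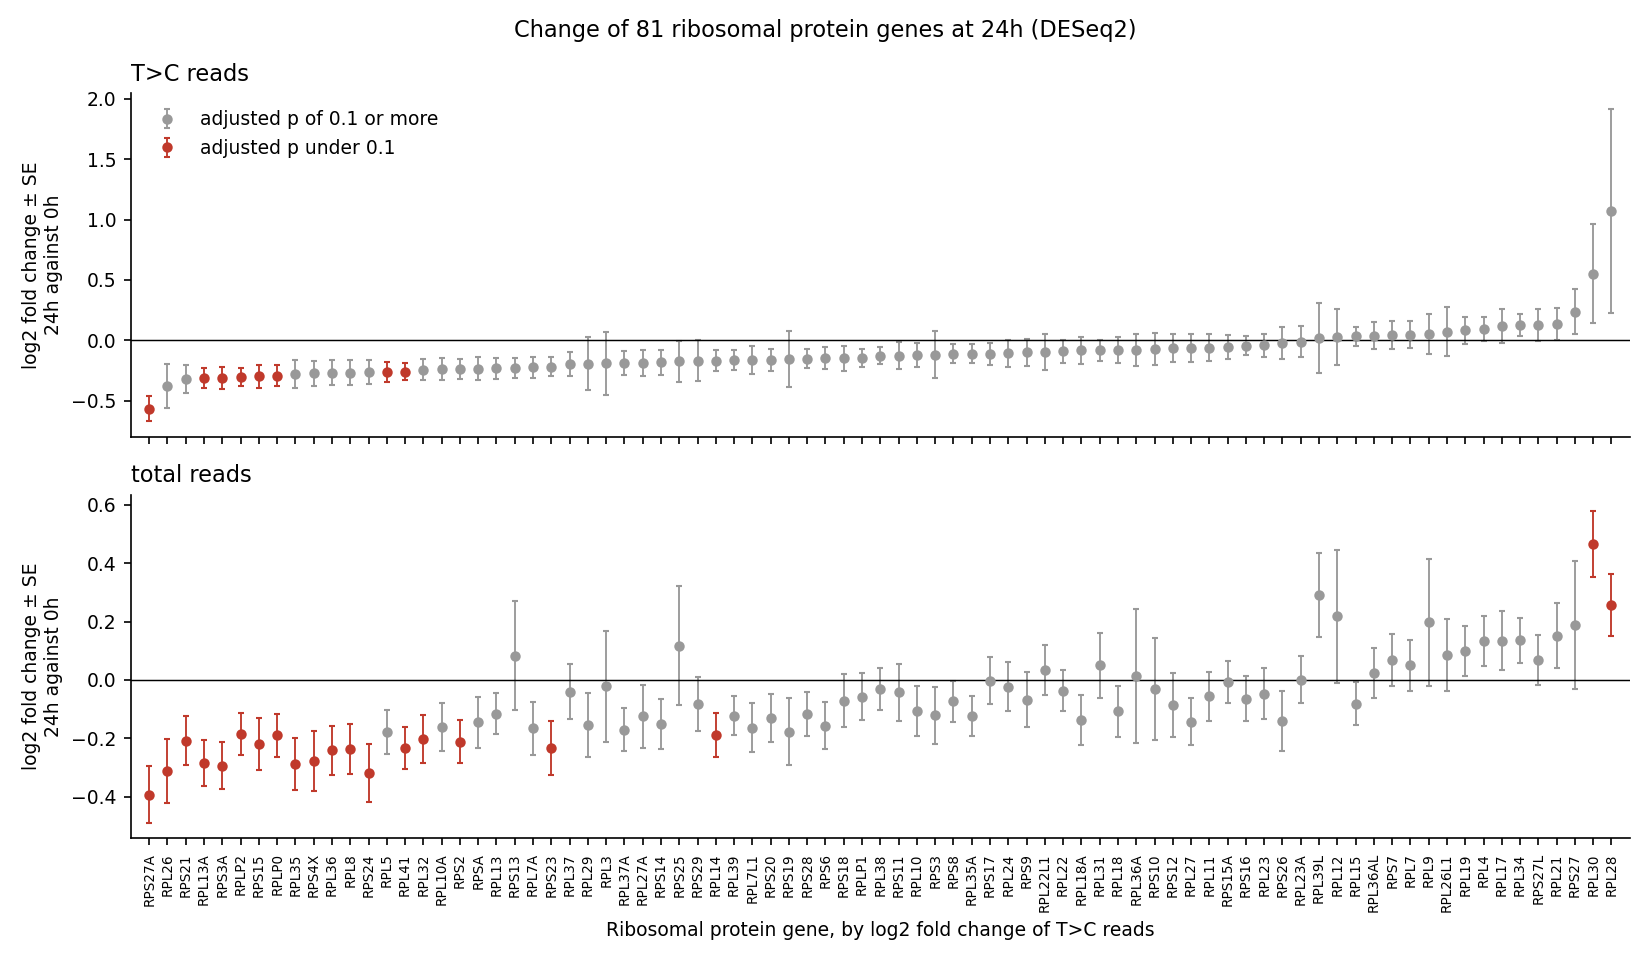
Log2 fold change (± SE) of T>C reads (top) and total reads (bottom) at 24h against 0h from DESeq2, for 81 of the 82 ribosomal protein genes in the order of their T>C value; red marks an adjusted p under 0.1. Of the T>C values plotted 64 lie below 0 and 8 are red, all below 0; of the total read values 20 are red, 18 below 0 and 2 above.

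The paralogs were not among the calls. Of the 6 that were measured, 2 were below 0 in T>C reads at 24h, with a median of 0.03, and 1 in total reads, with a median of 0.05. Among the 43 genes with a tract at the annotated start, 38 were below 0 in T>C reads, with a median of −0.15. Within the subunit genes, the 42 with a tract had a median of −0.16 with 37 below 0, and the 19 with a promoter but no tract there had a median of −0.12 with 13 below 0. The difference between these lists was not tested.

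Between 3h and 24h, 1 gene passed in each measure (DESeq2; over all genes the T>C reads of 1.14% and the total reads of 5.39% passed). This comparison shares its 24h libraries with that against 0h. RPLP2 had 9875, 10160 and 8411 normalised T>C reads at 3h, all above its values at 24h (log2 fold change −0.32, SE 0.08, adjusted p = 0.017). It did not pass in any fit without a culture, with values of −0.28, −0.30 and −0.46, nor with size factors from total reads (−0.23). RPL34 had 16455, 23292 and 30585 normalised total reads at 3h and 31867, 28899 and 41630 at 24h, where the groups overlapped but each culture was higher at 24h (0.24, SE 0.08, adjusted p = 0.083). Without S9CC13_R6 its fitted fold change was −0.11, although its reads were higher at 24h in both remaining cultures. It was 0.91 without S9CC47_R6 and 0.57 with culture as a block. With culture as a block instead of the other covariates, 10 genes passed in T>C reads (12.2%, against 4.4% of all genes) and 12 in total reads (14.6%, against 13.2%). Without S9CC47_R6, 36 passed in total reads (43.9%, against 7.55%), 28 of them lower.

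The T>C share itself did not pass for any of the 82 genes or any other gene (limma on log2 odds of T>C centred on the median gene of each library; 0.0% of 11561 genes in each comparison). At an unadjusted p under 0.05 were 0 of the 82 genes at 3h, 0 at 24h and 2 between 3h and 24h, while 6.57%, 5.97% and 8.75% of all genes were. The edgeR test of T>C against unconverted reads called 0, 0 and 2 of the 82, and 0.251%, 0.0173% and 1.11% of all genes. Relative to the median gene, the log2 odds were below 0 in 74 of the 82 genes at 24h against 0h (90.2%, against 49.7% of all genes), with a median of −0.08, and in 27 of 82 at 3h. Without centring, the median share of the genes at 0h was 6.11% ± 0.37 (SD, n = 3). It was 5.56% ± 0.43 in the 3h libraries and 6.17% ± 0.20 in the 24h libraries. That of all genes was 27.3% ± 1.1, 25% ± 2.4 and 28.5% ± 1.2, so the share of the median gene moved with time between the libraries too.

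Other genes of translation and ribosome production were read from lists, in the main fit only. At 24h, 2.59% of all genes were lower in T>C reads. In total reads 7.85% of all genes were lower and 7.11% higher. Of 16 translation factors and related genes whose messenger RNAs carry the tract, EEF1G, a subunit of the elongation factor complex, was lower in T>C reads at 24h (log2 fold change −0.34, SE 0.10, DESeq2 adjusted p = 0.028). In total reads 4 of the 16 were lower, including EIF3L, a subunit of initiation factor 3 (−0.25, SE 0.08, adjusted p = 0.024), and 1 was higher, EIF3H.

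Of 29 ribosome assembly genes, none passed in T>C reads at 24h (DESeq2, main fit). Their median was −0.07, with 22 below 0, where 49.8% of all genes were. In total reads 6 of the 29 were lower (7.85% of all genes were). These 6 were BOP1, DKC1, NCL, NHP2, NOP2 and RRP12, with RRP12, a pre-ribosome export factor, at −0.39 (SE 0.10, adjusted p = 0.0014). Of 15 genes of RNA polymerase I and its factors, TAF1C, a subunit of the promoter selectivity factor, was lower in both measures (−0.66 in T>C reads and −0.39 in total reads, DESeq2 adjusted p = 0.032 and 0.018). Of all genes, 2.59% were lower in T>C reads and 7.85% in total reads. The 78 mitochondrial ribosomal protein genes had a median of 0.00 in T>C reads at 24h, with 40 below 0 and 1 lower (MRPS2, −0.41, SE 0.12, adjusted p = 0.030). In total reads 5 of the 78 were higher and 6 lower, where 7.11% of all genes were higher and 7.85% lower.

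Among 9 regulators, MYC, a transcription factor that drives ribosome production, had more total reads at 24h than at 0h (log2 fold change 0.91, SE 0.29, DESeq2 adjusted p = 0.020). In total reads 7.11% of all genes were higher. MYC was counted with few reads (a mean of 92.4 normalised total reads) and did not pass in T>C reads at 24h against 0h. LARP1, MTOR, RPTOR, EIF4EBP1, RPS6KB1, RPS6KB2, MYCN and MDM2 did not pass in either measure at 24h.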

How the data were processed

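The authors deposited raw counts per gene symbol in 2 tables of 9 columns, 1 for all reads and 1 for T>C reads, and every value column was used (0 were left out). Per the study's methods, adapters and poly(A) were removed from read 1 before slamdunk mapped and counted it against hg38; no molecular identifiers and no region set are stated in the sources used here. Reads that fit several places, as with processed pseudogenes, and base differences read as conversions can alter both tables, which was not tested. The counts were not scaled to length.

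Counts of all 9 samples entered DESeq2 1.42.0 (R 4.3.3) with time, batch and 1 surrogate variable (sva 3.50.0), the covariates of the study's methods. Tests covered protein-coding genes that reached 1 CPM in 3 or more samples, 12037 genes for T>C and 11710 for total reads, without independent filtering, at a Benjamini-Hochberg adjusted p under 0.1. The T>C share was tested with limma 3.58.1 on log2((T>C + 0.5)/(unconverted + 0.5)), centred per library, with batch as a term, over 11561 genes. edgeR 4.0.16, other covariates, filters, size factors and pseudocount, and each culture left out in turn served as alternatives. Scripts were tested on simulated counts, where the calls held more false ones than the threshold allows for total reads and for the T>C share, but not for T>C reads. The simulated reads were drawn independently for each sample, without batch or culture effects, unlike the real samples. Whether the T>C calls of the real samples keep to the threshold was therefore not tested. P-values measure the spread between these samples.

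Samples were grouped by their titles. Samples of the same name share clone and differentiation, so the labels pair them: the deviations of same-named samples from their group means correlated with a mean r of 0.13 (0.02 to 0.29, 9 pairs) for T>C reads and of 0.27 (−0.06 to 0.61) for total reads.

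Coordinates and transcripts came from GENCODE release 44, in which all 84 members matched by symbol, and promoters from RefSeq (GRCh38.p14). The members and the lists of other genes were chosen with earlier results of these data known. Values were given per sample for the 5 members of highest level at 0h, the 3 highest and 3 lowest T>C shares, up to 3 members with the largest rise and 3 with the largest fall per measure and comparison among those that passed, paralog pairs, RPL5, RPL11 and RPS19. Other genes named with values (RPL28 and RPL30 shares, RPLP0 and RPS15) were picked after their values were seen. Results for some genes are not reported here.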

Additional observations from a re-analysis of the deposited data

Results flagged for a closer look

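The effects at 3h and at 24h differed by the direct test of 24h against 3h (DESeq2, adjusted p under 0.1) in 2 genes, 1 per measure (1.22% of the 82, against 1.14% of all genes in T>C reads and 5.39% in total reads). T>C reads of RPLP2 had a log2 fold change of −0.32 (SE 0.08, adjusted p = 0.017), lower at 24h in 3 of 3 cultures, but did not pass in any of the fits without a culture. Total reads of RPL34 had a log2 fold change of 0.24 (SE 0.08, adjusted p = 0.083), higher at 24h in 3 of 3 cultures, but did not pass in edgeR (adjusted p = 0.13). The fit without S9CC13_R6 gave −0.11, a sign that neither remaining culture had.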

How the results depend on the processing

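Counts below are of the 82 genes at an adjusted p under 0.1. With edgeR, T>C reads gave 1 at 3h, 16 at 24h and 5 between 3h and 24h, where the main fit gave 0, 8 and 1. These edgeR counts are 1.22%, 19.5% and 6.10% of the 82, against 2.39%, 8.04% and 2.22% of all genes. Between 3h and 24h edgeR gave 0 in total reads (5.68% of all genes passed), where the main fit gave 1. For the T>C share it gave 2 (2.44%, against 1.11% of all genes), where the main fit gave 0. With culture as a replicate block, the paired fit, 10 passed in T>C reads between 3h and 24h, and total reads gave 11 at 24h, against 20, and 12 between 3h and 24h. Without the surrogate variable these counts were 7, 8 and 4 (8.54%, 9.76% and 4.88%, against 3.10%, 11.5% and 7.69% of all genes). Without a filter on low counts 3 passed in T>C reads and 6 in total reads between 3h and 24h, with 153 and 922 calls over all genes. With size factors from total reads 1 passed in T>C reads at 3h (1.22%, against 1.92% of all genes) and 0 between 3h and 24h (1.08% of all genes passed). The cause of these differences was not tested.

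RPL28 turned to −0.081 under the block and to −0.020 without the surrogate variable. Leaving out samples, including the 3h library of S9CC13_R6 (chosen after seeing the data), gave 0 to 2 calls for T>C reads of the 3h samples, 0 to 6 at 24h and 0 to 5 between 3h and 24h, with medians of −0.22 to −0.019 in the last. Of all genes, 0.457 to 1.08%, 0.557 to 3.08% and 0.199 to 1.04% passed in these fits. In total reads leaving out samples gave 0 to 14 at 3h, 1 to 12 at 24h, with medians of −0.11 to 0.031, and 0 to 36 between 3h and 24h, with medians of −0.20 to 0.054. Of all genes, 0.564 to 1.70%, 1.39 to 6.73% and 0.786 to 7.55% passed there. The fold changes of total reads at 24h then ran from −0.56 to 0.10 for RPL26, from −0.030 to 0.83 for RPL30, from −0.37 to 0.028 for RPL35, from −0.32 to 0.12 for RPL8, from −0.26 to 0.038 for RPS15, from −0.51 to 0.065 for RPS24 and from −0.43 to 0.18 for RPS4X. Between 3h and 24h RPL34 ran from −0.11 to 0.91. In each of these 8 genes the fitted sign turned without S9CC13_R6. For RPL26, RPS24, RPL30 and RPL34 the normalised reads of both remaining cultures kept the direction of the main fit, so the turned sign does not describe these cultures. The fitted medians of 0.031 and 0.054 were also those without S9CC13_R6, while the medians within both remaining cultures were below 0. No T>C fold change of a called gene reversed in any alternative.

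Without the 9 genes of high T>C share, a set chosen after seeing the data, the members held 4.75%, 4.62% and 4.10% of T>C reads at 0h, 3h and 24h. The share of reads pooled over members was 8.46% at 0h, against a median of 6.14%. RPL39L, RPL12 and RPL26L1 had the fewest T>C reads of the 82 genes, and RPL26L1 had the widest interval of its share.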
